A study of Mus musculus with 2 samples.

Results

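The 8 genes described here encode muscle proteins that carry or steer ubiquitin ligase activity: the kelch genes Klhl31, Klhl40 and Klhl41, the muscle RING finger genes Trim54, Trim55 and Trim63, the F-box gene Fbxo32 and the ankyrin repeat gene Asb2. They were chosen by symbol, as 8 of the 26100 genes counted in both libraries, and all 8 were found. A ubiquitin ligase marks a protein with ubiquitin, often for breakdown by the proteasome. Kelch proteins with a BTB domain bring substrates to the scaffold CUL3, F-box proteins to CUL1 and ASB proteins to CUL5, while the TRIM proteins named here, also known as MuRFs, carry a RING domain of their own. In skeletal muscle Klhl40 and Klhl41 are known for keeping thin filament proteins stable, and Trim63 and Fbxo32 for their induction in muscle wasting.

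The series followed the conversion of mouse embryonic fibroblasts (MEF) into induced myogenic progenitor cells (iMPC), a culture that holds muscle stem cell-like and differentiating muscle cells side by side. Single-cell RNA was counted as unique molecular identifiers (UMIs, 1 per captured molecule) with the 10x Genomics 3′ assay, version 3, in 1 library per group. The iMPC library came from a stable clone made with MyoD, a muscle transcription factor, together with F/R/C, which abbreviates forskolin, RepSox and CHIR99021, and it was kept in medium with F/R/C. The MEF library came from fibroblasts in MEF medium. Both groups had the genotype Tg:Pax7-nGFP/C57BL6;DBA2, so the fibroblast control also carried the Pax7 reporter, and the age of the embryos was not given in the sources used here. A group here is 1 library, and the iMPC library 1 clone, so differences carry no replicate check and no p-value. The 95% intervals given are exact and reflect the counting of UMIs alone.

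MEF cells were barcodes with at most 20% mitochondrial UMIs, and iMPC cells also needed at least 8036 UMIs. This gave 6043 MEF cells (118069653 UMIs, median 18929 per cell) and 9349 iMPC cells (232728796 UMIs, median 20846). Cell barcodes shared by the libraries numbered 16, or 0.265% of MEF cells. The iMPC cells were split by UMIs of 4 genes that mark successive stages. The Pax7 class (at least 1 Pax7 UMI, no Myog) held 2180 stem cell-like cells, the Myog class (at least 5 Myog, at most 1 Ckm) 1724 cells, the Ckm class (at least 5 Ckm, no Myh4) 386 cells and the Myh4 class (at least 2 Myh4) 720 cells. No class was assigned to 4447 cells, or 47.6%, and 103 cells were in both the Myog and the Myh4 class.

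The class labels were checked against marker lists, each given as its summed CPM, the UMIs of a gene per 1000000 UMIs of the class, with the 4 genes that set the classes left out of these sums. The other 8 myocyte markers summed to 96.2 CPM in MEF cells, 684 in the Pax7 class, 9631 in the Myog class, 24105 in the Ckm class and 38370 in the Myh4 class. The other 5 committed myoblast markers summed to 164 CPM in MEF cells, 387 in the Pax7 class and 4290 in the Myog class. Their sums in the Ckm and Myh4 classes were 6046 and 3040 CPM. Of these 5, only Myod1 was highest in the Myog class. Cdkn1c, Mymk and Mymx were highest in the Ckm class and Mef2c in the Myh4 class. The other 9 satellite cell markers were mixed: 5 (Hey1, Heyl, Myf5, Notch3 and Sdc4) were highest in the Pax7 class, while Cdh15 and Itga7 were highest in the Ckm class, Dag1 in the Myh4 class and Chrdl2 in the Myog class. They summed to 788 CPM in the Pax7 class, 137 in MEF cells and 515 to 537 in the other 3 classes. The sum of the 8 fibroblast markers went the other way, from 5756 CPM in MEF cells to between 73.4 and 698 in the 4 iMPC classes. Fbln1 alone among them was not highest in MEF cells, with 56.8 CPM there, 137 in the Pax7 class and 68.2 in the Myog class. The 8 cardiac markers summed to at most 1951 CPM in a class, but 1 of them, Tnnt2, which early skeletal muscle also uses, was above 10 CPM, and Myh6 and Nppa stayed at or under 2.18 CPM. Endothelial and immune markers summed to at most 0.707 and 2.07 CPM in the 4 classes. Depth moved with the classes: the median cell held 18730 UMIs in the Pax7 class, 23858 in the Myog class, 32798 in the Ckm class and 47027 in the Myh4 class, and the median mitochondrial share went from 3.47% to 7.26%. The part of the mitochondrial share in the levels below was not tested. Shares of cells are given at equal depth for that reason.

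Upstream sequence was available from RefSeq (GRCm38.p6) for 6 of the 8 genes as 7 windows of 300 bases, 250 before and 50 from each transcription start. Trim55 and Fbxo32 had no entry. The windows are shown because 5 of the 7, from 5 of the 6 genes, hold CAGCTG, a form of the E-box CANNTG to which MyoD and myogenin are known to bind, while CAGCTG is in 16.3% of the 32851 mouse windows of the same kind. Both strands were searched, and CAGCTG reads the same on both. Capitals mark CAGCTG and, in Klhl41, a MEF2 site, in Trim63 TATAAA.
Klhl40: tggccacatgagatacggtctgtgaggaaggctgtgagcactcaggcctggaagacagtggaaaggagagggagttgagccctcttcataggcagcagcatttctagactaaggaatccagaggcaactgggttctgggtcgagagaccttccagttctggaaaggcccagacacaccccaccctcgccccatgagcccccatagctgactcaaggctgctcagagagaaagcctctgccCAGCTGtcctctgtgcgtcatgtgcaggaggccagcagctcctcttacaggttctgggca
Klhl41: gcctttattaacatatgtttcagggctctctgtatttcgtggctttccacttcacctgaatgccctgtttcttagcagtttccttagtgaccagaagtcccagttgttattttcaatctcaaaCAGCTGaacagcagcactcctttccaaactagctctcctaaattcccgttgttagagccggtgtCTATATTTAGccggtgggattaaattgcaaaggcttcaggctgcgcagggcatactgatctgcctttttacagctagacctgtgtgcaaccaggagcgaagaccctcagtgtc
Trim54: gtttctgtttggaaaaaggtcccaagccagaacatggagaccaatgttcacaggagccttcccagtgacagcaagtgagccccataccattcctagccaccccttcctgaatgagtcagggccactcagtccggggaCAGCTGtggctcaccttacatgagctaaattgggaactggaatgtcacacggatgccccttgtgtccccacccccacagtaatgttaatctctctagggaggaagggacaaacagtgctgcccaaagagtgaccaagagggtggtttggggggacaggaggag
Trim63: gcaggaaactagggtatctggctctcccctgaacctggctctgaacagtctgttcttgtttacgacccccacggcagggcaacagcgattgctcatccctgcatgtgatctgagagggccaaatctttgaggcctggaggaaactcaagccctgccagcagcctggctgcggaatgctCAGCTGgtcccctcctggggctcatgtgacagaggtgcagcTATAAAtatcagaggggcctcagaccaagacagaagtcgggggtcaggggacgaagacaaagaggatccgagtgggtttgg
Asb2 inner start: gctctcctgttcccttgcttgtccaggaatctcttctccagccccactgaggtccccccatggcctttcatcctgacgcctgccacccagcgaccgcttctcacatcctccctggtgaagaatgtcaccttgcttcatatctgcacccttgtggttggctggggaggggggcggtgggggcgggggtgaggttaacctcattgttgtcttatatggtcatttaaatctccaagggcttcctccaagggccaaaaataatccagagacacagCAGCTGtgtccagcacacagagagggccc
The windows lie at chr9:121777357-121777656 (Klhl40, plus strand), chr2:69669870-69670169 (Klhl41, plus), chr5:31116362-31116661 (Trim54, plus), chr4:134314870-134315169 (Trim63, plus) and chr12:103338341-103338640 (Asb2, minus, printed 5′ to 3′). Counted from the start site as 0, CAGCTG begins at -10 in Klhl40, -127 in Klhl41, -113 in Trim54, -72 in Trim63 and 21 at the inner Asb2 start. The MEF2 site of Klhl41 begins at -63, and such a site is in 3.19% of all windows. TATAAA in Trim63 begins at -31 and is in 13.6% of all windows. Neither the Klhl31 window nor that of the outer Asb2 start holds CAGCTG, although the outer Asb2 window has other CANNTG letters, which are in 72.3% of all windows. A match is a description of letters, not a measured binding site.

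Across the libraries, 7 of the 8 genes were close to silent in fibroblasts and present in iMPC cells, and Fbxo32 was present in both. Klhl40, which stabilises nebulin and leiomodin 3, had 0 UMIs in all MEF cells and 51.8 CPM in iMPC cells. This is 2040-fold higher when MEF is set to 3 UMIs, and the exact lower limit of the ratio was 1659-fold. Klhl41, its relative on nebulin, had 0.152 CPM (18 UMIs) in MEF cells and 122 CPM in iMPC cells, a log2 ratio of 9.64 (8.98 to 10.4). A single MEF UMI each stood against 7512 iMPC UMIs of Klhl31, 5155 of Trim54, 7789 of Trim55 and 4485 of Asb2. Ratios over 1 UMI are loosely bounded, as the log2 ratio of Trim54 shows at 11.35 (8.87 to 16.7). Trim63, with 2 MEF UMIs, had a log2 ratio of 10.33 (8.48 to 13.4).

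Fbxo32, the F-box protein atrogin-1, stood apart. It had 728 UMIs in MEF cells, or 6.17 CPM (5.73 to 6.63), against 11.7 CPM (11.3 to 12.2) in iMPC cells, a log2 ratio of 0.93 (0.81 to 1.05). At least 4-fold higher in iMPC than in MEF cells were 7 of the 8 genes, where 7.31% of the 8605 genes with at least 10 CPM in a library passed that limit, and none was 4-fold lower, against 7.47% of genes. The median log2 ratio of the 8 was 11.07 and that of all genes -0.17. With cells thinned to 8000 UMIs each, the median of the 8 was 8.69, with MEF counts of Klhl31, Klhl40, Trim54 and Trim55 then at 0 and set to 3 UMIs.

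Within the iMPC library the kelch genes were higher at each step from the Pax7 to the Myh4 class. Klhl41 had 6.11 CPM (5.40 to 6.89) in the Pax7 class, 127 (123 to 130) in the Myog class, 240 (232 to 249) in the Ckm class and 413 (406 to 419) in the Myh4 class. Klhl40 had 3.86 CPM (3.30 to 4.49), 53.7 (51.7 to 55.9), 136 (130 to 142) and 155 (151 to 159) in the same order. Klhl31, a kelch protein linked to the turnover of filamin C, had 2.39 CPM (1.95 to 2.89), 32.0 (30.4 to 33.7), 67.3 (63.1 to 71.7) and 104 (100 to 107). For all 3, neighbouring classes had intervals that did not overlap. The last step differed in size among them: the log2 ratio of the Myh4 to the Ckm class was 0.78 (0.73 to 0.83) for Klhl41, 0.63 (0.52 to 0.73) for Klhl31 and 0.19 (0.12 to 0.27) for Klhl40.

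The MuRF genes split at the last step. Trim54 (MuRF3), which binds microtubules and the sarcomere, had 1.0 CPM (0.726 to 1.34) in the Pax7 class, 21.7 (20.4 to 23.1) in the Myog class, 56.3 (52.5 to 60.4) in the Ckm class and 67.8 (65.1 to 70.5) in the Myh4 class. Trim63 (MuRF1), a ligase for thick filament proteins, followed the same order with 1.04 CPM (0.765 to 1.39), 24.6 (23.2 to 26.1), 52.8 (49.1 to 56.7) and 67.2 (64.5 to 69.9). Trim55 (MuRF2), a titin-binding relative, had 5.0 CPM (4.36 to 5.70), 50.1 (48.1 to 52.2), 98.1 (93.0 to 103) and 64.3 (61.7 to 67.0). Trim55 was thus highest in the Ckm class, with a log2 ratio of the Myh4 to the Ckm class of -0.61 (-0.71 to -0.51), where Trim54 had 0.27 (0.15 to 0.38) and Trim63 0.35 (0.23 to 0.47). The MuRF genes were also compared by Myh4 level inside the Myh4 class. Between its 152 cells with at least 20 Myh4 UMIs and its 298 cells with 2 to 4, the log2 ratio was -0.30 (-0.46 to -0.13) for Trim55, 0.40 (0.26 to 0.55) for Trim54 and 0.14 (-0.02 to 0.29) for Trim63, the last spanning 0. Between its 270 cells with 5 to 19 Myh4 UMIs and those with 2 to 4, all 3 ratios were at or under 0, at -0.07 (-0.20 to 0.06) for Trim54, -0.03 (-0.17 to 0.10) for Trim63 and -0.17 (-0.30 to -0.04) for Trim55.

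Asb2, which directs filamins to breakdown, had 3.93 CPM (3.37 to 4.56) in the Pax7 class, 23.7 (22.3 to 25.1) in the Myog class, 49.2 (45.7 to 53.0) in the Ckm class and 43.5 (41.4 to 45.7) in the Myh4 class. The intervals of the last 2 classes just overlapped. The log2 ratio of the Myh4 to the Ckm class was -0.18 (-0.31 to -0.05), and it was 0.13 (-0.17 to 0.43) when cells were thinned to 8000 UMIs. Fbxo32 again had its own course, with 8.86 CPM (8.0 to 9.78) in the Pax7 class, 17.7 (16.6 to 19) in the Myog class, 6.01 (4.8 to 7.44) in the Ckm class and 15.4 (14.2 to 16.7) in the Myh4 class. The interval of its Ckm class level overlapped that of MEF cells, and that of its Myh4 level overlapped that of the Myog class. The direct log2 ratio of the Myh4 to the Myog class was -0.20 (-0.36 to -0.05). The Ckm class value rests on 85 UMIs.

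**Figure D1:**
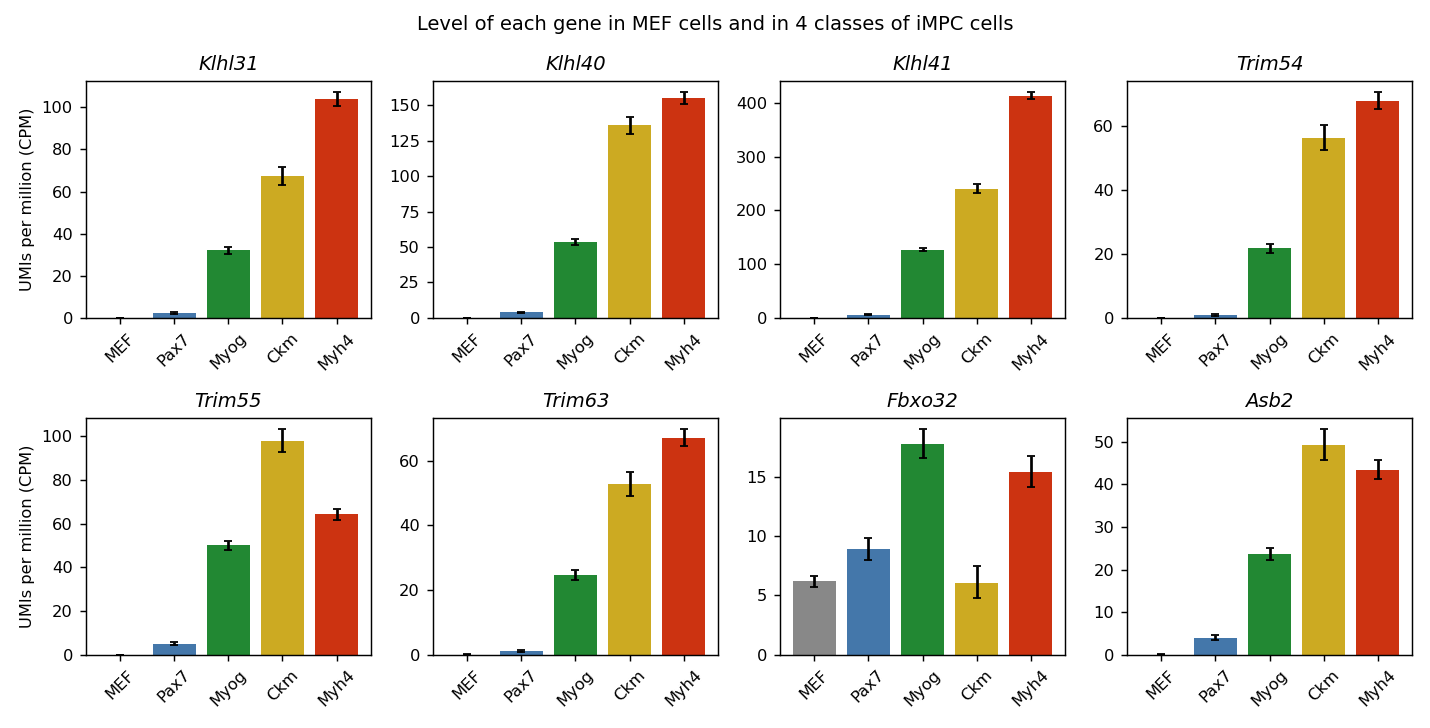
CPM (linear axis from 0, one scale per gene) of each gene in MEF cells and the Pax7, Myog, Ckm and Myh4 classes of iMPC cells, as bars with exact 95% Poisson intervals. Klhl31, Klhl40, Klhl41, Trim54 and Trim63 are highest in the Myh4 class, Trim55 and Asb2 in the Ckm class (98.1 and 49.2 CPM), and Fbxo32 in the Myog class (17.7 CPM).

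Counted over the group, 7 of the 8 were at least 4-fold higher in the Myog than in the Pax7 class (3.47% of 7932 genes), with Fbxo32 the exception at a log2 ratio of 1.0 (0.83 to 1.18), and none was 4-fold lower (2.66% of genes). The other 7 spanned 2.59 (Asb2) to 4.56 (Trim63). From the Myog to the Ckm class, none of the 8 was 4-fold higher (0.0277% of 7220 genes) or 4-fold lower (2.33%), and 7 had ratios between 0.92 (Klhl41) and 1.37 (Trim54), while Fbxo32 had -1.56 (-1.90 to -1.24). From the Ckm to the Myh4 class, none passed 4-fold in either direction (0.655% and 0.149% of 6714 genes). As class levels, the largest step of the 7 genes was thus the first, from the Pax7 to the Myog class. The Myog class joins cells of unlike contractile content, as given below for Trim63 and Trim54. Medians of the 8 log2 ratios were 3.77, 1.06 and 0.31 for the 3 steps, beside -0.14, -0.19 and -0.02 over all genes tested.

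The Myh4 class was the highest of the 5 sets for 5 of the 8 genes, as it was for 14.4% of the 9116 genes with at least 10 CPM in a set. The Ckm class was highest for 2, as for 8.19% of genes, the Myog class for 1, as for 10% of genes, and none was highest in MEF cells or the Pax7 class, where 41% and 26.4% of genes were. Among the 607 genes at least 4-fold higher in the Myh4 than in the Pax7 class, 70.3% were highest in the Myh4 class, 21.9% in the Ckm class, 2.14% in the Myog class and 5.6% in MEF cells. These 607 were counted among the 9116 genes, which are more than the 8161 with at least 10 CPM in the Pax7 or Myh4 class used for that ratio elsewhere. The place of Asb2 is not settled. Its log2 ratio of the Myh4 to the Ckm class was -0.18 (-0.31 to -0.05), but 0.13 (-0.17 to 0.43) in thinned cells.

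Levels in the Pax7 class were low enough for free RNA to count. Barcodes with 200 to 600 UMIs, under the limit for iMPC cells, were taken as free RNA and gave an estimate of its part. Whether some of them hold small cells was not tested, and the MEF matrix lists barcodes from 503 UMIs on. The Pax7 class level was 1.09 times the estimate for Trim54, 1.30 times for Trim63 and 1.41 times for Klhl41, against 5.95 times for Asb2, 6.55 times for Trim55 and 38.9 times for Fbxo32. Klhl31 and Klhl40 lay between at 2.56 and 3.2 times. The same ratio ran from 2.96 (Trim63) to 19.9 (Fbxo32) in the 194 iMPC cells of no class with at least 20 UMIs of the fibroblast gene Dcn, so such cells were also above the estimate for all 8 genes. With that estimate subtracted, the log2 ratio of the Myog to the Pax7 class was 8.02 for Trim54 rather than 4.44, and 6.11 for Klhl41 rather than 4.37. The sizes of the first step given for these genes are therefore smaller than those after subtraction.

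At equal depth, with each cell thinned to 8000 UMIs, the share of cells with a UMI followed the order of the levels for 7 genes, with Asb2 the exception. Klhl41 was found in 0.13% of MEF cells, 5.09% of the Pax7 class, 39.6% of the Myog class, 76.4% of the Ckm class and 89.2% (86.7 to 91.3) of the Myh4 class. Klhl40 was found in 2.71%, 24.5%, 58.3% and 65.8% of the 4 classes and in 0 of 5383 MEF cells, which allows a share of up to 0.0685%. In the Myh4 class, Trim54 was found in 39.6% of cells, Trim63 in 37.9% and Trim55 in 34.4%. For Trim55 the Ckm class had the larger share, 52.6% (47.5 to 57.7) against 34.4% (31.0 to 38.0), so its lower level in the Myh4 class was also seen as fewer cells with a UMI. Asb2 was found in 29.5% of the Ckm class and 29.6% of the Myh4 class, and Klhl31 in 42.7% and 51.7%. Fbxo32 was found in 4.59% of MEF cells, 5.87% of the Pax7 class, 12.4% (10.9 to 14.1) of the Myog class, 3.89% (2.19 to 6.33) of the Ckm class and 10.1% (8.03 to 12.6) of the Myh4 class. Without thinning the Myh4 class shares were 97.4% for Klhl41, 94% for Klhl31, 93.5% for Klhl40, 84.9% for Trim54, 82.9% for Trim55, 81.9% for Trim63, 72.1% for Asb2 and 34.2% for Fbxo32.

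As a background, the same shares were taken in all 243 such Dcn-high iMPC cells, whose median depth was 18872 UMIs against 18730 in the Pax7 class. In these cells the thinned shares were 7.82% for Klhl41, 2.88% for Klhl31 and 1.65% for Trim63, all above the Pax7 class shares of 5.09%, 1.56% and 0.917%. Dcn-high cells were not free of muscle RNA. The 10 myocyte markers, Ckm and Myh4 included, summed to 3321 CPM in them and 692 in the Pax7 class. These cells therefore cannot tell whether the Pax7 class shares of these 3 genes are background. For the other 5 genes the Pax7 class share was higher, with overlapping intervals. By CPM only Fbxo32 was higher in the Pax7 class, at a log2 ratio to Dcn-high cells of 0.25 (-0.21 to 0.75). The other 7 genes were lower in the Pax7 class by CPM. Their ratios ran from -2.55 (-3.23 to -1.85) for Trim54 to -0.74 (-1.26 to -0.19) for Asb2. Of the Dcn-high cells, 36 also belonged to the Pax7 class, 6 to the Myog, 1 to the Ckm and 7 to the Myh4 class. In the 194 that no class holds, Trim55 was found in 0.515% (0.0130 to 2.84), below its 4.13% (3.33 to 5.05) in the Pax7 class with intervals apart, and for the other 7 genes the intervals overlapped. Klhl31 and Trim63 were found in 1.03% and 0.515% of these 194 cells, below the Pax7 class, and Klhl41 in 6.70%, above it. Fbxo32, which fibroblasts also have, was found in 4.64% of these cells, so they give no background for it.

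**Figure D2:**
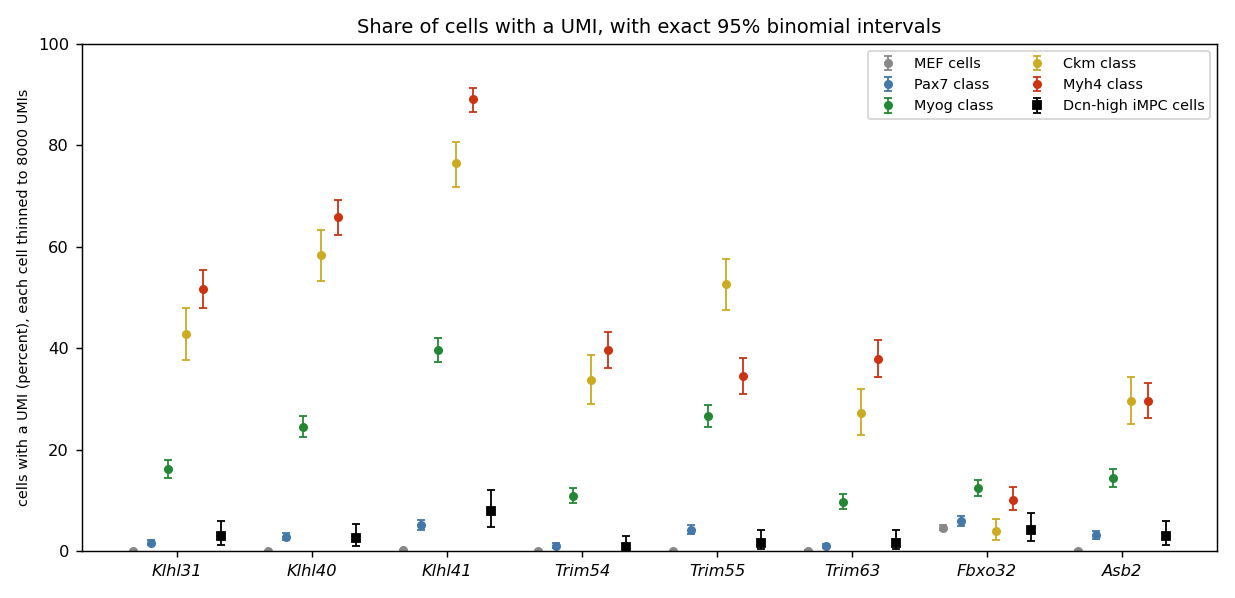
Percent of cells with at least 1 UMI of each gene after thinning every cell to 8000 UMIs (linear axis, 0 to 100), for MEF cells, the 4 iMPC classes and, as black squares, Dcn-high iMPC cells; bars are exact 95% binomial intervals. Klhl41 reaches 89.2% of the Myh4 class, Trim55 is more frequent in the Ckm class (52.6%) than in the Myh4 class (34.4%), and the intervals of the Pax7 class and the Dcn-high cells overlap.

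The number of the 8 genes found in a cell was also counted. Its average follows from the share of cells with each gene and does not measure joint presence. At 8000 UMIs, a cell had UMIs of 0.244 of the 8 genes on average in the Pax7 class, 1.54 in the Myog class, 3.24 in the Ckm class and 3.58 in the Myh4 class. None of the 8 was seen in 78.2% of the Pax7 class and in 1.94% of the Myh4 class, and 5 or more were seen in 0% and 26.1%. No cell of the 4 classes had all 8. Within the Myh4 class, 27 of the 28 pairs had a larger share of one gene in cells with the other, Klhl31 and Fbxo32 being the exception, and 3 of the 28 had intervals apart. Trim63 was found in 48.1% of cells with Trim54 and 31.3% of cells without it, and in 43.5% of cells with Klhl40 and 27.2% of cells without it. Trim55 was found in 38.2% of cells with Klhl40 and 27.2% without. Trim63 and Fbxo32, the pair known from muscle wasting, were not among these 3, with Trim63 in 46.6% of cells with Fbxo32 and 36.9% of cells without, at overlapping intervals.

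Per cell, the UMIs were spread as follows. In the Myh4 class the median cell had 20 Klhl41 UMIs (quartiles 11 and 30, highest 74), 7 of Klhl40, 5 of Klhl31, 3 of Trim54 and 2 each of Trim55, Trim63 and Asb2. The 72 of 720 Myh4 class cells with the most UMIs of a gene held 21.6% of all its UMIs for Klhl41 and 33.7% for Trim63, but 62.7% for Fbxo32, whose median cell had 0 and highest 21. In the Myog class 173 of the 1724 cells held 80.5% of the Trim63 UMIs, with up to 66 in a cell, and 46.4% of the Trim55 UMIs. Such a share also depends on how many UMIs a gene has.

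To follow the genes without the class limits, all 9349 iMPC cells were ordered by the share of their UMIs in 13 contractile genes, none of them among the 8, and cut into 20 bins of 467 or 468 cells. Trim55 and Asb2 came up earlier in this order than the kelch genes, Trim54 and Trim63, while Fbxo32 was above 25% of its highest bin from bin 1 on. Asb2 first reached 10% of its highest bin in bin 7, lay around it up to bin 11 and above it from bin 12 on, the bin in which Trim55 reached it. Klhl31 and Klhl40 reached 10% in bin 15, and Klhl41, Trim54 and Trim63 in bin 16. Both Asb2 and Trim55 were at 25% in bin 15, Klhl31 in bin 16 and the other 4 in bin 17. Trim63 had the sharpest onset, at 1.45 CPM in bin 15, 14.7 in bin 16, 35.4 in bin 17 and 70.5 in bin 18. The Myog class crosses this onset, with 369, 346, 178 and 112 of its cells in bins 15 to 18. The Myog class level of Trim63 thus joins cells before and after the onset. Trim54 likewise had 3.89 CPM in bin 15 and 43.7 in bin 17. Myog, the regulator that marks commitment, was highest in bin 16 at 1920 CPM.

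Past the onset the genes parted again. Klhl31, Klhl40 and Klhl41 were highest in the last bin, at 113, 170 and 467 CPM, with no other bin overlapping. Trim54, Trim63 and Asb2 levelled off, their highest bin (70.8, 70.5 and 46.9 CPM) overlapping bins 18 to 20. Trim55 was highest in bin 17 at 91.1 CPM and lay at 63.6 CPM in bin 20. Fbxo32 had 7.15 CPM in bin 1, was highest in bin 14 at 21.6 CPM, before the peak of Myog, and had 12.5 CPM in bin 20. The mean rank of a gene's UMIs along the order, from 0 to 1, was 0.898 for Klhl41, 0.895 for Trim63, 0.893 for Trim54, 0.889 for Klhl31, 0.883 for Klhl40, 0.840 for Asb2, 0.838 for Trim55 and 0.614 for Fbxo32, beside 0.568 for all UMIs. As a guide, Myog had 0.813 and Ckm 0.907, so Trim55 and Asb2 lay nearer to Myog and the other 5 nearer to Ckm.

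**Figure D3:**
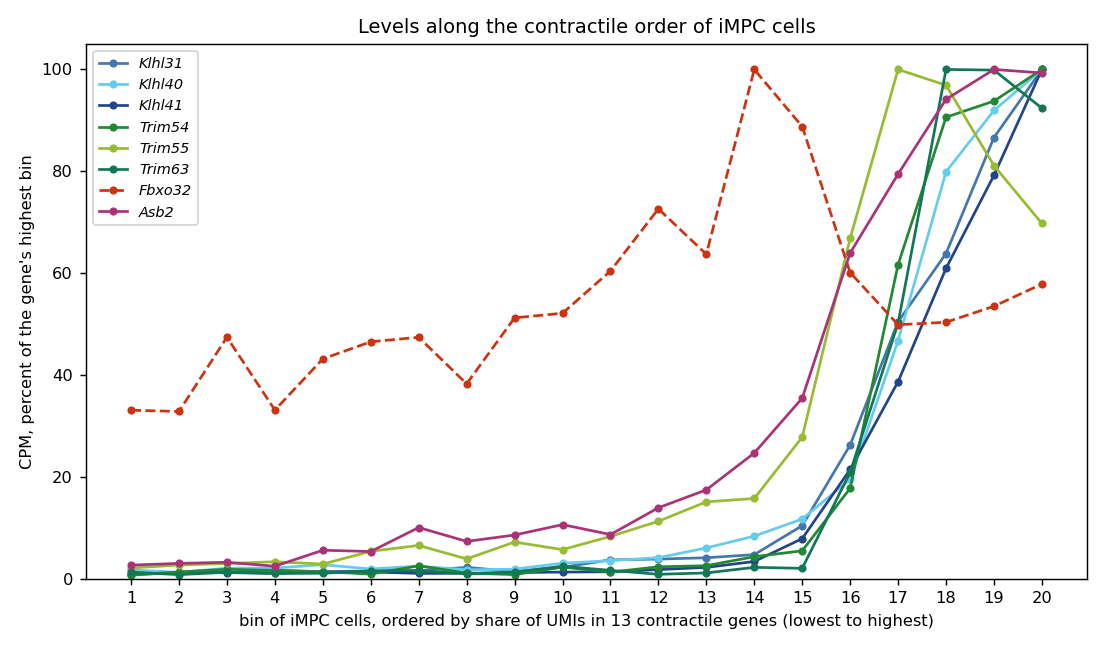
CPM of each gene as a percent of its own highest bin (linear axis) in 20 bins of iMPC cells, ordered from the lowest to the highest share of UMIs in 13 contractile genes. Trim55 peaks in bin 17 and declines to 63.6 CPM, the kelch genes climb to bin 20, and Fbxo32 (dashed) peaks in bin 14 at 21.6 CPM.

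Likeness to other genes was described by Pearson's r of log2(CPM + 1) over the 20 bins, among 8892 genes. These bins come from 1 library and share its order and depth, so r is a description. Klhl41 was close to Tnnt2 (0.997) and Srl (0.996), which encode a troponin and a protein of the sarcoplasmic reticulum. Klhl40 was most like Bin1, Hrc and Myl6b (0.992 each), and Klhl31 like Pdlim3 (0.996), Bin1 (0.995) and Arl6ip5 (0.994). Trim54 was most like Dtna (0.994), Chrna1 and Cox6a2 (0.993 each), Trim63 like Xirp1 and Casq2 (0.993 each) and Hspb3 (0.992), and Trim55 like Zdbf2 (0.991), Iffo1 and Ccdc141 (0.990 each). The titin gene Ttn was nearest to Asb2 (0.990), followed by Alpk3 (0.990) and Gatm (0.989). Between 202 (Trim55) and 370 (Klhl31) genes reached 0.95 for each of these 7, so closeness of this degree was common. Fbxo32 had no gene at 0.95: its nearest were Eif3b (0.906), Mrpl12 (0.897) and Timm8a1 (0.896), and its r with the other 7 was 0.124 (Trim63) to 0.517 (Asb2).

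Fbxo32 and Trim63 were also set side by side in cells with and without a UMI of the proliferation gene Mki67, a split chosen after its values were seen. A count of 0 does not make a cell non-dividing. In the Pax7 class, Fbxo32 had 12.6 CPM (11 to 14.4) in 1053 cells with no Mki67 UMI and 6.42 (5.50 to 7.46) in 1127 cells with at least 1, a log2 ratio of 0.97 (0.68 to 1.27). Asb2 went the other way there, with 2.64 against 4.77 CPM and a log2 ratio of -0.85 (-1.37 to -0.35). Klhl41 was higher without Mki67, with 7.65 against 5.11 CPM and a log2 ratio of 0.58 (0.23 to 0.94). Trim63 had 1.32 against 0.864 CPM, at a log2 ratio of 0.61 (-0.29 to 1.51). The intervals of Klhl31, Klhl40, Trim54 and Trim55 also spanned 0. In MEF cells Fbxo32 had 6.38 and 4.59 CPM, and in the Myog class 18.7 and 16.4 CPM at a log2 ratio of 0.19 (-0.01 to 0.40). In the Myog class the other 7 genes were higher in cells without Mki67, with Trim63 at 35.3 against 9.90 CPM and log2 ratios from 0.77 (Asb2) to 1.84 (Trim63). Cells with Mki67 UMIs were deeper, with medians of 22221 against 15673 UMIs in the Pax7 class, and whether depth had a part was not tested.

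**Figure D4:**
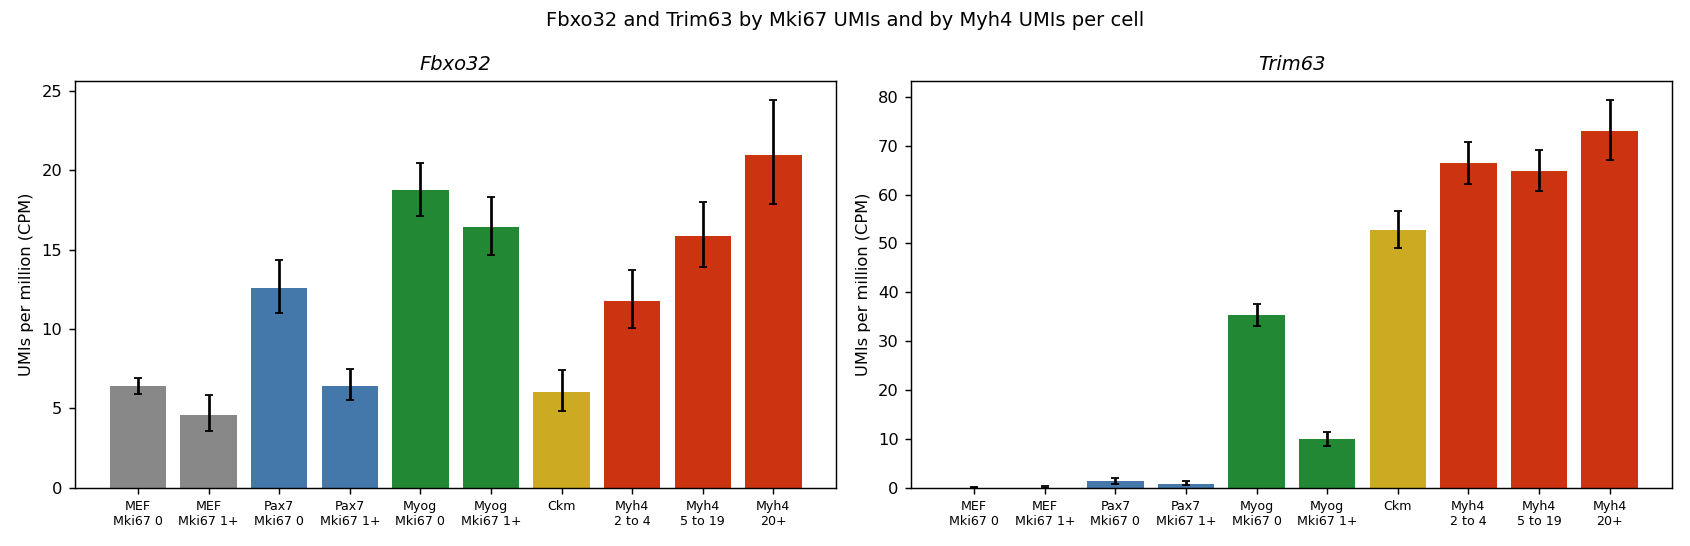
CPM (linear axes from 0, exact 95% Poisson intervals) of Fbxo32 and Trim63 in MEF cells and iMPC classes, split by Mki67 UMIs (0, or 1 and more) and, in the Myh4 class, by Myh4 UMIs per cell. Fbxo32 is higher in Pax7 class cells without Mki67 (12.6 against 6.42 CPM), and Trim63 in Myog class cells without Mki67 (35.3 against 9.90 CPM). Fbxo32 is also higher in cells with at least 20 Myh4 UMIs (20.9 CPM) than in those with 2 to 4 (11.8 CPM). At 8000 UMIs per cell its share of cells did not rise in this way, at 9.06% for 2 to 4, 11.5% for 5 to 19 and 9.87% for at least 20.

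Genes of proteins on which the kelch and ASB ligases act were compared by their RNA between the Myh4 and the Pax7 class. Protein was not measured. In this comparison 7 of the 8 ligase genes were at least 4-fold higher (7% of 8161 genes, with 11.8% at least 4-fold lower). Of 8 client and partner genes tested, 6 were at least 4-fold higher and 2 at least 4-fold lower, with a median log2 ratio of 3.19, beside -0.46 over all genes and 5.39 over the 8. Neb, the giant thin filament protein nebulin, had 65.2, 568, 1042 and 1225 CPM in the 4 classes in order. Lmod2 and Lmod3, which build thin filaments, had log2 ratios of 6.93 and 6.09, and Nrap, a partner of Klhl41, 6.21. The filamins Flnc and Flna split: the muscle form Flnc was higher at 2.06, and the widely expressed Flna was lower at -3.33. Of the 8 titin, M-band and Z-disc genes around the MuRF proteins, 6 were at least 4-fold higher and none lower, with a median of 5.64. Csrp3 (6.32) and Tcap (5.96), both of the Z-disc, were among the highest there, and the autophagy receptors Nbr1 (0.54) and Sqstm1 (-1.02) were within or near a 2-fold range.

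The general machinery these ligases work with was mostly within 2-fold between the Myh4 and the Pax7 class. This held for 9 of the 10 cullin-RING core genes tested, whose median log2 ratio was 0.12, beside -0.46 over all genes. None of these 10 reached 4-fold in either direction, where 7% of 8161 genes were higher and 11.8% lower. At these shares, a count of none among 10 genes says little. The scaffolds Cul1 (-0.17) and Cul5 (-0.05) differed little, the neddylation protein Nedd8 had 0.39, and the largest ratios were those of Rnf7 (1.35), a RING partner of CUL5, and Elob (0.93), an adaptor of ASB proteins. Cand1, a cullin exchange factor, had -0.76. Of the 10 ubiquitin-conjugating enzymes tested of 11 listed, none reached 4-fold, with a median of 0.10 and a range from -0.19 (Ube2l3) to 0.84 (Ube2d1).

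Other ligases known in muscle were mixed: of 27, 17 were at 10 CPM or more, 6 of these were at least 4-fold higher, none was 4-fold lower and the median was -0.23. The highest were the membrane repair gene Trim72 (5.58), Fbxl22 (5.34) and Klhl30 (5.15), and the lowest Fbxo21 (-1.43), Mdm2 (-0.97) and Trim32 (-0.75). Among 11 FoxO factors and atrophy-linked targets, the setting in which Trim63 and Fbxo32 are best known, none was 4-fold higher and Ddit4 (-2.10) was 4-fold lower, at a median of 0.39. Gadd45a (1.55), Cdkn1a (1.54) and Bnip3 (1.20) were the highest, and Ctsl (-1.73) and Eif4ebp1 (-0.15) the next lowest. Of the 9 upstream regulators tested, Mef2c was higher at 4.42 and Mef2d at 1.62, Srf had 0.43 and Hdac4 -0.35, and Myog and Pax7 were set by the class limits.

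Relatives of the 8 genes were counted in the same comparison. Among kelch genes, 18 of 45 were at 10 CPM or more, and 7 of these were at least 4-fold higher in the Myh4 than in the Pax7 class, 4 of them not among the 8: Klhl30 (5.15), Kbtbd12 (3.91), Klhl13 (2.23) and Klhl21 (2.21). Of the ASB genes, 3 of 5 tested passed, Asb5 (2.46) and Asb8 (2.04) beside Asb2. Of 22 TRIM genes tested, 5 passed, Trim72 (5.58) and Trim7 (2.68) beside the 3 MuRF genes, and the next was Trim35 (1.29). F-box genes differed most from the others: 1 of 30 passed, Fbxl22 (5.34), followed by Fbxo31 (1.16) and Fbxw7 (1.15), and 23 of the 29 relatives of Fbxo32 were within 2-fold. The ratio of Fbxo32 itself was 0.80 (0.61 to 0.99).

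**Figure D5:**
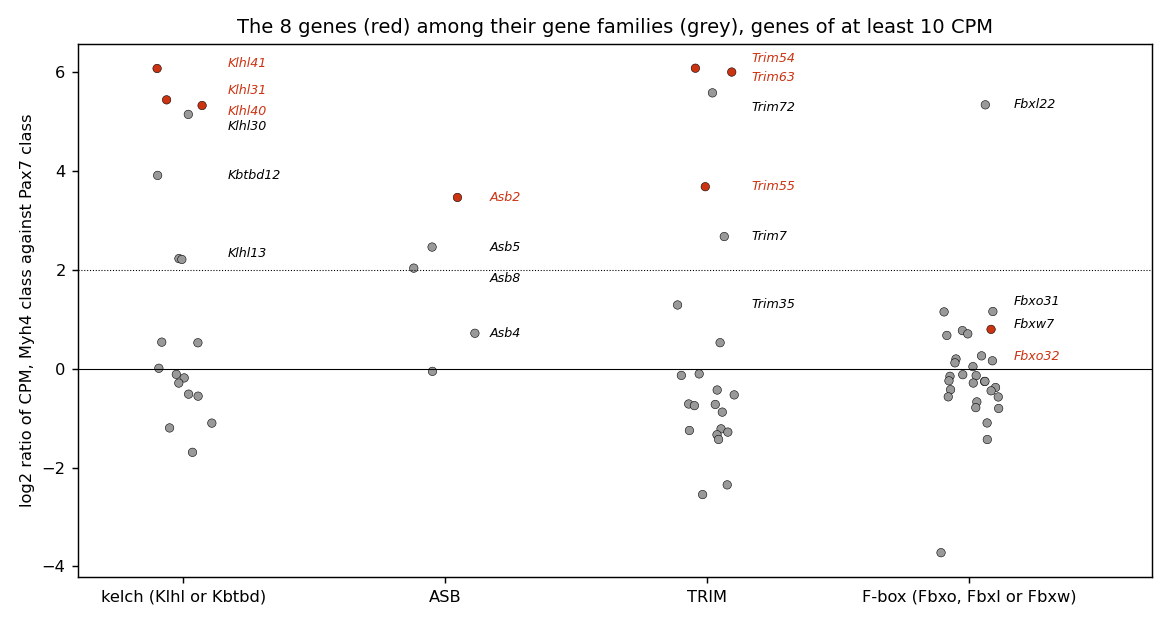
Log2 ratio of CPM in the Myh4 class to the Pax7 class (linear axis; dotted line at 4-fold) for each gene of at least 10 CPM in the kelch, ASB, TRIM and F-box families, 1 point per gene, with the 8 genes in red. The members reach from 3.47 (Asb2) to 6.08 (Trim54 and Klhl41), with Fbxo32 at 0.80 among the bulk of its family.

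In the annotation used for positions (GENCODE M21, GRCm38), all 8 genes are protein coding: Klhl41 at chr2:69670120-69684230, Trim55 at chr3:19644474-19692421, Trim63 at chr4:134315120-134329629, Trim54 at chr5:31116712-31137630, Klhl31 at chr9:77636500-77660127, Klhl40 at chr9:121777607-121783818, Asb2 at chr12:103321142-103356001 and Fbxo32 at chr15:58175879-58214932, the last 2 on the minus strand. Klhl40 overlaps Gm47108 on the other strand, which had 87 UMIs in iMPC cells against 12063 of Klhl40. The 3′ assay reads near the transcript end and gives no length term, so CPM levels of different genes are not ranked here, and counts of cells or UMIs given for several genes are values of each gene alone.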

How the data were processed

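Raw UMI counts per gene and barcode of 1 iMPC and 1 MEF library were used as deposited. Per the file headers and the submitters' processing notes they were written by Cell Ranger 4.0, and the notes name GRCm38.p6 and Seurat 3.2.3. No normalisation by the authors is recorded. The iMPC matrix is unfiltered, with 6794880 barcodes (2707590 with any UMI), and the MEF matrix lists 6113. The labels give the MEF sample the protocol text of the iMPC sample, and its own treatment label was followed. MEF lists 24 more genes (0.209% of its UMIs), which were left out.

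UMIs were summed over the cells of a class and divided by the class total (CPM). Intervals are exact Poisson for a level, exact conditional for a ratio and Clopper-Pearson for a share, at 95%. A count of 0 was set to a floor of 3. Genes entered a comparison at 10 CPM on either side, and 4-fold was the limit for counting. No doublets were removed in the values given; Scrublet marked 377 iMPC cells (4.03%). Free RNA was profiled in 48846 barcodes of 200 to 600 UMIs, at the share that their median of 430 UMIs has of a cell's UMIs. Thinning was without replacement and left out 660 MEF cells under 8000 UMIs. Other genes were named by rule: the 3 highest and 3 lowest ratios of each list, the 3 highest non-members of each family and the 3 nearest genes in the order. Neb, Klhl21, the class genes and markers were added after their values were seen. Some genes that this rule names are not reported here. The 8 genes, lists and classes were chosen with earlier results of these data known. Python 3.11.15, numpy 2.4.6, scipy 1.17.1, pandas 2.3.3 and scanpy 1.11.5 were used, and the ratios were tested on simulated counts. Alternatives changed the doublet, mitochondrial (10%) and UMI (12000) limits, the scaling, free RNA, depth, class limits and class overlap.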

Additional observations from a re-analysis of the deposited data

Results flagged for a closer look

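All 8 genes had UMIs in iMPC barcodes of 200 to 600 UMIs, at levels above those of the MEF library. These barcodes are under the limit for iMPC cells and gave the free RNA estimate used above. The levels were 189 CPM for Klhl41, 52.6 for Klhl40, 40.5 for Klhl31, 40.0 for Trim54, 35.1 for Trim63, 33.2 for Trim55, 28.7 for Asb2 and 9.93 for Fbxo32. In iMPC cells the same genes had 122, 51.8, 32.3, 22.2, 21.9, 33.5, 19.3 and 11.7 CPM in that order.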

How the results depend on the processing

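Of the 76 summary values recomputed under the alternatives, 69 kept their value within their interval or count limit and 7 moved, all 7 in the same direction as before. The median log2 ratio of iMPC to MEF cells, 11.07, was 5.28 over the 2 genes with at least 10 UMIs in both libraries and 8.69 with cells thinned to 8000 UMIs. The median of the Myog to the Pax7 class, 3.77, was 4.36 with free RNA subtracted and 3.51 without cells that 2 classes hold. The median of the Ckm to the Myog class, 1.06, was 1.24 with thinned cells, 1.35 with stricter class limits and 1.29 without cells that 2 classes hold. Of 840 values of single genes, 577 stayed, 262 moved and 1 reversed, that of Asb2 from the Ckm to the Myh4 class, -0.18, which was 0.13 in thinned cells, at an interval that spans 0. The cause was not tested. Of 40 mean ranks along the contractile order, 26 moved: over the alternatives Fbxo32 ranged from 0.532 to 0.617, Trim55 and Asb2 from 0.798 to 0.844 and the other 5 from 0.849 to 0.901, with the lowest value of each gene in thinned cells. Ordering cells by all their UMIs, an alternative added after seeing the data, moved none of the 8. With 1 library per group, intervals cover counting error and leave out any difference between cultures, and ratios to MEF cells are limited by MEF counts of 0 to 18 UMIs for 7 of the 8 genes.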

Other observations

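The 4447 iMPC cells that no class holds had levels between those of the Pax7 and the Myog class for all 8 genes: 54.7 CPM for Klhl41, 25 for Klhl40, 19.6 for Trim55, 16 for Klhl31, 11.4 for Trim54, 11.3 for Asb2 and 10.8 for Trim63. Fbxo32 had 9.55 CPM there, also between its Pax7 and Myog levels.

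The Myh4 class holds 125 cells with at most 1 Ckm UMI, and these were compared with its other 595 cells. Klhl41 had 360 CPM in the former and 421 in the latter, Klhl40 136 and 158, and Klhl31 84.8 and 107, so the kelch genes were higher in the latter. Trim55 had 80.6 and 61.9 CPM, a log2 ratio of -0.38 (-0.54 to -0.22), and Trim63 75.8 and 65.9, a log2 ratio of -0.20 (-0.36 to -0.04). Trim54 had 60.6 and 68.9 CPM, a log2 ratio of 0.18 (0.01 to 0.37), so within the MuRF genes it alone was higher in the 595 cells. Of the 125 cells, 103 were also in the Myog class. Median depth was 35842 UMIs in the 125 cells and 49080 in the 595, and whether depth had a part was not tested.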
